A study of Homo sapiens with 4 samples.

Results

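This account covers 32 genes that encode enzymes of nucleotide synthesis and of the serine and folate reactions that feed it. They were taken by symbol from the 16376 gene rows of the table, and all 32 were found. By role they form 4 branches: 11 purine genes, 5 pyrimidine genes, 8 deoxynucleotide genes and 8 serine and folate genes. RNA was sequenced from LASCPC-01 cells treated with ketotifen (2 libraries) or with PBS (2 libraries), all labelled day 3 and of the genotype label WT. LASCPC-01 cells model human prostate cancer of the neuroendocrine type. They descend from benign prostate epithelial cells given N-Myc and an active form of AKT1, so every library carries both. All results come from this 1 line, and the ketotifen dose is not given in the sources used here (the ketotifen columns carry a 5, unexplained). Ketotifen blocks the H1 histamine receptor and stabilises mast cells, and the series title names it as a candidate drug for this cancer. The labels do not say whether libraries came from separate cultures, so p-values cover the spread between these libraries only, and that spread may be technical.

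Cells build purines step by step on phosphoribosyl pyrophosphate (PRPP), and pyrimidines as a free ring that is joined to PRPP later. Ribonucleotide reductase then turns ribonucleotides into deoxynucleotides for DNA, and thymidylate synthase adds the methyl group that makes thymidine. The carbon units for purines and thymidine are carried by folate and come mainly from serine, which cells take up or make from a glycolytic intermediate. These enzymes are high in dividing cells, and many are described as targets of MYC family factors and of E2F factors.

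Values are FPKM, fragments scaled by gene length and by a library total, as the authors deposited them. Log2 differences are ketotifen minus PBS on log2(FPKM + 1), with the standard error (SE) from limma over 2 libraries a group. A gene was called at a Benjamini-Hochberg adjusted p under 0.05 over the 10586 genes whose mean reached 1 FPKM. All 32 enzyme genes passed that filter. Reads recovered from the steps of the FPKM values summed to between 31154678 and 34812856 per library. Among neuroendocrine markers, INSM1, NCAM1, ENO2 and UCHL1 passed the filter, while NEUROD1, SYP and CHGA stayed under 0.6 FPKM in each library. Of the 4 named as passing, voom called NCAM1 and ENO2 lower and none higher, and limma called none. NCAM1 had 44.4 and 43.9 FPKM with ketotifen against 52.0 and 51.2 FPKM with PBS. ENO2 had 2.07 and 1.60 FPKM with ketotifen against 2.76 and 3.10 FPKM with PBS. UCHL1, the highest of the 4, lay apart the other way, with 487 and 490 FPKM under ketotifen against 458 and 434 FPKM under PBS (voom adjusted p = 0.0979). INSM1 overlapped, with 19.7 and 21.8 FPKM under ketotifen against 22.9 and 21.7 FPKM under PBS. Markers of other cell types summed to 2.55 and 2.12 FPKM with ketotifen against 2.85 and 2.96 FPKM with PBS for 5 fibroblast genes. For 5 luminal prostate genes, mostly TMPRSS2, the sums were 17.2 and 15.7 FPKM with ketotifen against 16.9 and 15.3 FPKM with PBS. For 4 immune genes they were 3.05 and 3.18 FPKM with ketotifen against 2.85 and 4.14 FPKM with PBS. For 3 mast cell genes they were 3.33 and 2.97 FPKM with ketotifen against 3.91 and 3.86 FPKM with PBS. Most of the mast cell sum was KIT, at 3.30 and 2.88 FPKM with ketotifen against 3.88 and 3.76 FPKM with PBS. TPSAB1 and CPA3 stayed at or under 0.0980 FPKM in each library. The part of these cell types in the enzyme values was not tested. PBS library B stood farthest from the rest. Its log2 values correlated with those of ketotifen libraries A and B at r = 0.993 and 0.994 across genes, against 0.996 for PBS library A with each of them. The PBS libraries correlated at 0.996 and the ketotifen libraries at 0.998.

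None of the 32 genes passed the limma threshold, where 0.123% of all tested genes did (0.00945% higher and 0.113% lower). At an unadjusted p under 0.05, 7 of the 32 were higher and 1 was lower with ketotifen, against 10.0% and 10.3% of all tested genes. Voom, a limma fit to the recovered reads, called 3 higher and 0 lower, against 3.35% and 3.47% of all tested genes. The 3 were DUT, the dUTPase that keeps uracil out of DNA, ADSL, a purine lyase, and PSAT1, the aminotransferase of serine synthesis. Both ketotifen values lay above both PBS values in 19 genes, and below them in 4. The same held for 23.2% and 31.2% of all tested genes. The median log2 difference was 0.08 over the 32 genes and -0.02 over all tested genes, and 26 of the 32 differences were above 0, against 44.3% of all genes. After each library was rescaled to an equal FPKM sum the median was 0.03 and 20 were above 0. Rescaling moved the median of all genes to -0.06. Between the PBS libraries, the median over the 32 genes was -0.03 (B minus A).

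How many passed depended on single libraries. Without PBS library A limma called 7 of the 32 higher (PRPS1, ADSL, TYMS, TK1, DUT, NME2 and PSAT1) and 1 lower (SHMT2), against 10.0% and 8.27% of all tested genes. Without PBS library B it called DUT alone, against 2.4% higher and 1.58% lower. Without ketotifen library A or B it called 0, where 0.0472% and 0.0283% of all genes were called higher, and 0.217% and 0.0661% lower. Voom called DUT alone without ketotifen library A, without ketotifen library B, without PBS library B and after quantile normalization. The shares of all genes called higher in those fits were 0.633%, 1.17%, 1.77% and 1.18%, and those called lower in the first 3 were 0.567%, 0.671% and 2.18%. Without PBS library A voom called 7 higher and 2 lower (GART and SHMT2), against 8.84% and 11.5% of all genes. With the column letters A and B as a block, limma called ADSL and DUT higher and 0 lower, against 3.84% and 2.18% of all genes. Voom with that block called 4 higher (PRPS1, ADSL, DUT and PSAT1) and 1 lower (SHMT2), against 6.05% and 7.21% of all genes. Nothing says that a letter ties a ketotifen library to a PBS library. Without 1 library a group has a single sample, and that sample is taken to vary like the others.

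**Figure D1:**
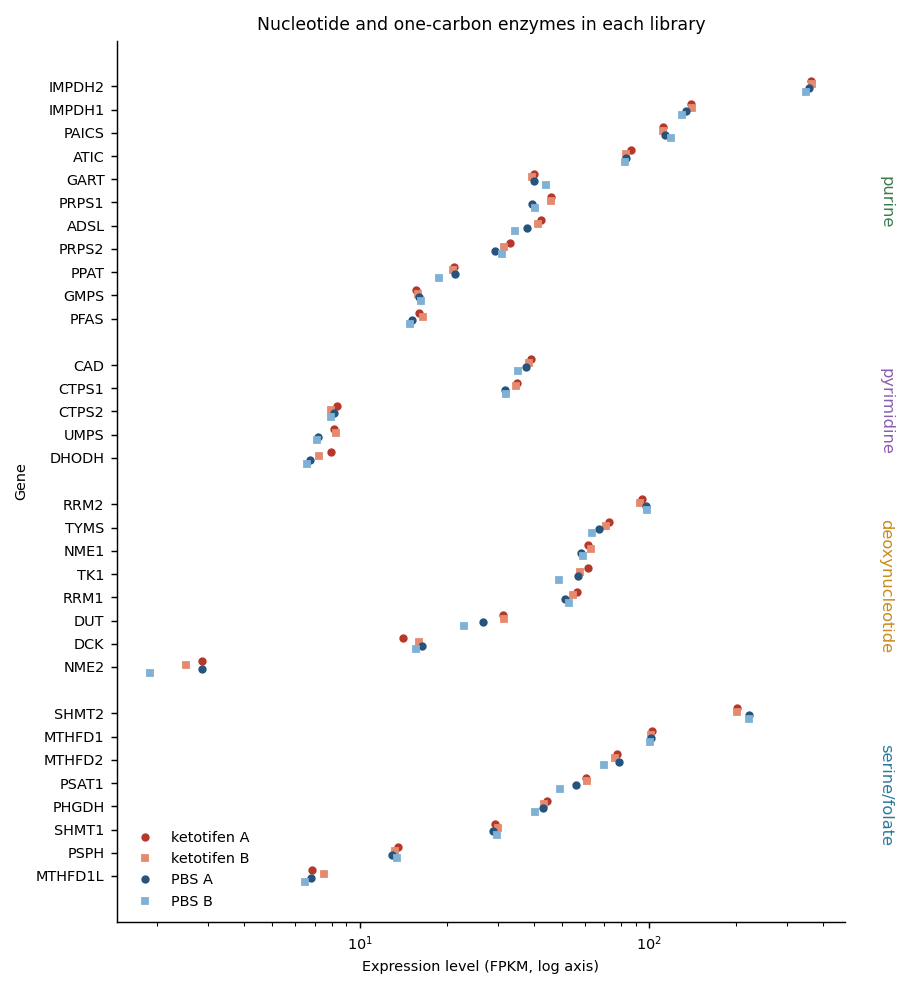
Expression of the 32 enzyme genes in FPKM (log axis), 1 row per gene, grouped by branch, with 1 point per library (red tones, ketotifen; blue tones, PBS). Levels ran from 1.89 FPKM for NME2 in PBS library B to 364 FPKM for IMPDH2 in ketotifen library B, and differences between genes far exceeded those between libraries.

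Among the purine genes, the PRPP synthetases stood first in the pathway. PRPS1, which makes PRPP from ribose phosphate, had 45.6 and 45.7 FPKM in ketotifen libraries A and B, against 39.4 and 40.2 FPKM in PBS libraries A and B. The groups lay apart, and the ketotifen mean was 14.8% above the PBS mean. The log2 difference was 0.19 ± 0.05 (SE; limma adjusted p = 0.122, voom adjusted p = 0.0562). Its isoenzyme PRPS2 had 33.1 and 31.4 FPKM with ketotifen against 29.2 and 31.1 FPKM with PBS. These groups nearly touched, and the difference was 0.10 ± 0.06.

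PPAT, the amidotransferase that commits PRPP to purines, had 21.1 and 21.0 FPKM with ketotifen, against 21.3 and 18.8 FPKM with PBS. PAICS, which carries out a pair of later ring-building steps, had 112.06 and 111.99 FPKM with ketotifen against 114 and 119 FPKM with PBS. PPAT overlapped between groups and PAICS did not, with log2 differences of 0.07 ± 0.07 and -0.06 ± 0.05. Without PBS library B the PPAT difference was -0.02. PPAT and PAICS stand back to back on chromosome 4, with 126 bases between their annotated starts (GENCODE 29, GRCh38), so their promoter windows share 236 bases. Both windows hold the same E-box, CACGTG, the element that MYC family factors bind. The PPAT window (chr4:56435566-56435865, minus strand, RefSeq on GRCh38.p14, 250 bases before to 50 after the start) is shown because it holds this shared E-box. The ATIC window (chr2:215311809-215312108, plus strand) is shown because it holds 2 E-boxes. Capitals mark CACGTG.
PPAT: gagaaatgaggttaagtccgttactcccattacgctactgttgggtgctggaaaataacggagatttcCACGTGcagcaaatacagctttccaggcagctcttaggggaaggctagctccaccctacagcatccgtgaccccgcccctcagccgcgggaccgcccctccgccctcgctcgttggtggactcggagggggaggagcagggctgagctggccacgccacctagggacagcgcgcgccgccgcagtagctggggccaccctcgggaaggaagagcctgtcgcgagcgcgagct
ATIC: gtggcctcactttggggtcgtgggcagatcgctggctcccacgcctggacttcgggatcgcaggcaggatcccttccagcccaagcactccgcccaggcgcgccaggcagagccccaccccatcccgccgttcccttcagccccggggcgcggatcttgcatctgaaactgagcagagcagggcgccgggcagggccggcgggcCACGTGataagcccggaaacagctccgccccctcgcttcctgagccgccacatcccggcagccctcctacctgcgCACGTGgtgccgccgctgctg

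GART, a trifunctional enzyme of the early ring, had 40.05 and 39.5 FPKM with ketotifen against 39.97 and 44.0 FPKM with PBS. The groups overlapped, with PBS library B alone above the rest (-0.08 ± 0.06). Exons of GART overlap those of SON on the other strand by 275 bases. PFAS, the amidotransferase that follows GART's formyl transfer, had 16.0 and 16.5 FPKM with ketotifen against 15.2 and 14.9 FPKM with PBS, and its groups lay apart (0.10 ± 0.06). ADSL, which cleaves fumarate off a pathway intermediate and again on the way to AMP, had 42.4 and 41.3 FPKM with ketotifen, against 37.8 and 34.3 FPKM with PBS. All ketotifen values lay above the PBS values, and their mean was 16.1% higher. ADSL rose in voom (0.22 ± 0.06, adjusted p = 0.0312) and did not pass in limma (0.21 ± 0.06, adjusted p = 0.148). Without PBS library B the voom difference was 0.15 (adjusted p = 0.16), and without either ketotifen library or after quantile normalization the voom call was also lost. ADSL lies on chromosome 22 (40346500 to 40390463, plus strand). Its exons overlap those of the annotated gene AL022238.4 on the same strand.

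ATIC, which closes the ring to give IMP, had 86.9 and 83.1 FPKM with ketotifen against 83.3 and 82.7 FPKM with PBS, with overlapping groups. From IMP, the dehydrogenases IMPDH1 and IMPDH2 lead to guanine nucleotides. IMPDH2 had the highest level of the 32 genes, 363 and 364 FPKM with ketotifen against 357 and 347 FPKM with PBS. IMPDH1 had 139 and 141 FPKM with ketotifen against 134 and 129.8 FPKM with PBS. Both isoenzymes had groups that lay apart, with differences of 0.05 ± 0.05 for IMPDH2 and 0.09 ± 0.05 for IMPDH1. GMPS, which completes GMP, was on the other side, with 15.6 and 15.9 FPKM under ketotifen against 16.1 and 16.3 FPKM under PBS (-0.04 ± 0.06). The differences of ATIC (0.03 ± 0.05) and IMPDH2 turned negative after rescaling to equal sums. Over the 11 purine genes, 6 had both ketotifen values above both PBS values, 2 had them below and 3 overlapped. Among all tested genes 23.2% had them above and 31.2% below.

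In the pyrimidine branch all 5 differences were above 0, against 44.3% of all tested genes. CAD, the multifunctional enzyme of the opening steps, had 38.9 and 38.5 FPKM with ketotifen against 37.5 and 35.2 FPKM with PBS. DHODH, the mitochondrial dehydrogenase that follows it, had 7.95 and 7.22 FPKM with ketotifen against 6.75 and 6.57 FPKM with PBS. UMPS, which joins the ring to PRPP and yields UMP, had 8.18 and 8.28 FPKM with ketotifen against 7.17 and 7.10 FPKM with PBS. In these 3 genes the groups lay apart. The ketotifen mean was above the PBS mean by 6.59% for CAD, 13.9% for DHODH and 15.4% for UMPS. For UMPS both groups were tight. Its difference was 0.18 ± 0.06 (limma adjusted p = 0.184, voom adjusted p = 0.0874).

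CTPS1 and CTPS2 aminate UTP to CTP. CTPS1 had 35.0 and 34.8 FPKM with ketotifen against 31.7 and 32.1 FPKM with PBS, with tight groups that lay apart (0.13 ± 0.05, limma adjusted p = 0.224). CTPS2 had 8.35 and 7.97 FPKM with ketotifen against 8.15 and 7.95 FPKM with PBS, and its groups overlapped (0.02 ± 0.07). The CTPS2 difference turned negative after rescaling to equal sums and without ketotifen library A. None of the 5 genes passed in limma or voom.

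Among the deoxynucleotide genes the difference of DUT was the largest of all 32. DUT hydrolyses dUTP, which supplies dUMP for thymidylate synthesis and keeps uracil out of DNA. It had 31.2 and 31.6 FPKM with ketotifen, against 26.8 and 22.9 FPKM with PBS. The ketotifen libraries were nearly equal and the PBS libraries lay apart from each other, with both PBS values below. The ketotifen mean of 31.4 ± 0.232 FPKM was 26.4% above the PBS mean of 24.8 ± 2.71 FPKM (SD, n = 2 each). DUT rose in voom (0.34 ± 0.07, adjusted p = 0.00759) and did not pass in limma (0.33 ± 0.08, 95% interval 0.16 to 0.50, adjusted p = 0.103). The voom call held without each library in turn, where the lowest difference was 0.23 without PBS library B (adjusted p = 0.0405). It also held after quantile normalization (adjusted p = 0.0402). In limma DUT passed without PBS library A (0.44, adjusted p = 2.41e-05) and without PBS library B (0.22, adjusted p = 0.0496). Its log2 values in the PBS libraries differed by -0.21 (B minus A).

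DUT lies on chromosome 15 (48331011 to 48343373, plus strand). GENCODE 29 names 8 pseudogenes after it and 1 antisense gene that overlaps its exons, so reads of near-identical copies may not be separated. RefSeq gives DUT several starts, and 1 of its windows (chr15:48331947-48332246, plus strand, GRCh38.p14), whose start lies 1186 bases from the GENCODE start, held a pair of E2F-type motifs, TTTGGCGC and TTTCCCGC. The second was found on the opposite strand as GCGGGAAA. Capitals mark both, and they do not overlap.
DUT: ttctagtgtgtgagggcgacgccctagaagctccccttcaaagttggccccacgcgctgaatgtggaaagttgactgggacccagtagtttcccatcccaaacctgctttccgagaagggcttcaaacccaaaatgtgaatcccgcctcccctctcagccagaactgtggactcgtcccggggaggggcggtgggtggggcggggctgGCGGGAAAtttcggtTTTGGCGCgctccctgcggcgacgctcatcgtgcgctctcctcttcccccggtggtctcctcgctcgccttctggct

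TYMS, thymidylate synthase, had 72.5 and 71.1 FPKM with ketotifen against 66.9 and 63.4 FPKM with PBS. TK1, the thymidine kinase of S phase, had 61.3 and 57.8 FPKM with ketotifen against 57.0 and 48.8 FPKM with PBS. Both had groups that lay apart, with differences of 0.14 ± 0.05 for TYMS and 0.17 ± 0.08 for TK1, and neither passed (limma adjusted p = 0.209 for TYMS and 0.259 for TK1). The exons of TYMS overlap those of ENOSF1 on the other strand, which had 8.27 and 7.37 FPKM with ketotifen against 7.22 and 7.15 FPKM with PBS. The labels name a stranded library kit, and whether reads were counted by strand is not given in the sources used here.

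The subunits of ribonucleotide reductase differed in direction. RRM1, the large catalytic subunit, had 56.5 and 54.5 FPKM with ketotifen against 51.1 and 52.8 FPKM with PBS. RRM2, the small subunit that limits the enzyme outside S phase, had 94.3 and 92.6 FPKM with ketotifen against 97.7 and 97.9 FPKM with PBS. The groups lay apart in both, upward for RRM1 (0.09 ± 0.05) and downward for RRM2 (-0.06 ± 0.05), and neither passed. DCK, which phosphorylates deoxycytidine in salvage, had 14.1 and 16.0 FPKM with ketotifen against 16.4 and 15.7 FPKM with PBS, with overlapping groups (-0.09 ± 0.07). DCK shares exon sequence with MOB1B on its own strand, and RRM2 with AC007240.1 on its own.

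NME1 and NME2 are the nucleoside diphosphate kinases that complete the triphosphates. NME1 had 61.3 and 62.9 FPKM with ketotifen against 58.2 and 59.2 FPKM with PBS (0.08 ± 0.05). NME2 had the lowest level of the 32, 2.85 and 2.51 FPKM with ketotifen against 2.85 and 1.89 FPKM with PBS. It rested on 105 and 85 reads in the ketotifen libraries and 94 and 66 in the PBS libraries, and its groups overlapped (0.14 ± 0.13). The annotated read-through gene NME1-NME2 shares exons with both, so how reads were split between them is uncertain.

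In the serine and folate branch, PHGDH, PSAT1 and PSPH turn a glycolytic intermediate into serine. PHGDH, the entry dehydrogenase, had 44.3 and 43.2 FPKM with ketotifen against 43.0 and 40.5 FPKM with PBS (0.07 ± 0.06). PSAT1 had 60.6 and 61.1 FPKM with ketotifen against 56.1 and 49.2 FPKM with PBS. The PSAT1 groups lay apart, with the ketotifen libraries close to each other and PBS library B the lowest. PSAT1 rose in voom by 0.21 ± 0.06, just inside the threshold (adjusted p = 0.0496), and did not pass in limma (0.21 ± 0.07, adjusted p = 0.168). Without PBS library B the voom difference was 0.12 (adjusted p = 0.357), and the call was also lost without either ketotifen library and after quantile normalization. Between the PBS libraries PSAT1 differed by -0.19 (B minus A). PSPH, the phosphatase that releases serine, had 13.6 and 13.2 FPKM with ketotifen against 12.9 and 13.5 FPKM with PBS, with overlapping groups (0.02 ± 0.06).

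The PSAT1 promoter window on chromosome 9 (chr9:78296875-78297174, plus strand, RefSeq on GRCh38.p14) is shown beside the DUT window because both genes were called in voom. It held no match to the E-box, to the E2F motifs or to TGATGNAA, a core of the amino acid response element bound by ATF4, on either strand.
PSAT1: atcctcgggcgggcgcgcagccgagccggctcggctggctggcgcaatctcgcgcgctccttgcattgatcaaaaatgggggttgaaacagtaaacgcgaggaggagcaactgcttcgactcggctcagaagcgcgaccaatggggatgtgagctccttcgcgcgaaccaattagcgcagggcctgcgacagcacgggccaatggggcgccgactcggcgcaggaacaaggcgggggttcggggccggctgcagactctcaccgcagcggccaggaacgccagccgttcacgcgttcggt

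SHMT2, the mitochondrial enzyme that splits serine into glycine and a folate-bound carbon unit, was the one gene of this branch on the lower side. It had 201.8 and 201.7 FPKM with ketotifen, against 221 and 222 FPKM with PBS. Both groups were tight and lay apart, with the ketotifen mean 8.96% below the PBS mean. The difference was -0.13 ± 0.05 (limma adjusted p = 0.194, voom adjusted p = 0.0793), with a 95% interval of -0.25 to -0.02. It kept its sign under each other setting tried and passed without PBS library A, in limma (adjusted p = 0.0437) and in voom (adjusted p = 0.00869). Exons of SHMT2 (chromosome 12, 57229327 to 57234935, plus strand) overlap those of NDUFA4L2 on the opposite strand by 33 bases. NDUFA4L2 had 94.6 and 84.8 FPKM with ketotifen against 128 and 124.9 FPKM with PBS and was among the genes called lower in limma (-0.49 ± 0.06, adjusted p = 0.0437). Its part in the SHMT2 value was not tested.

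The cytosolic counterpart SHMT1 had 29.4 and 30.02 FPKM with ketotifen against 28.8 and 29.7 FPKM with PBS, with overlapping groups (0.02 ± 0.05). MTHFD1, the cytosolic trifunctional folate enzyme, had 102.2 and 101.8 FPKM with ketotifen against 101.3 and 100.6 FPKM with PBS. Its difference of 0.01 had a 95% interval of -0.10 to 0.13. MTHFD2, the mitochondrial dehydrogenase and cyclohydrolase, had 77.5 and 76.1 FPKM with ketotifen against 78.5 and 69.9 FPKM with PBS, and its groups overlapped (0.05 ± 0.06). MTHFD1L, the mitochondrial formate producer, had 6.85 and 7.52 FPKM with ketotifen against 6.80 and 6.45 FPKM with PBS (0.10 ± 0.07). The differences of SHMT1, MTHFD1 and PSPH turned negative after rescaling to equal sums, and that of MTHFD2 without PBS library B. Exons of MTHFD2 overlap those of SLC4A5 on the other strand, and exons of MTHFD1 those of ZBTB25.

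**Figure D2:**
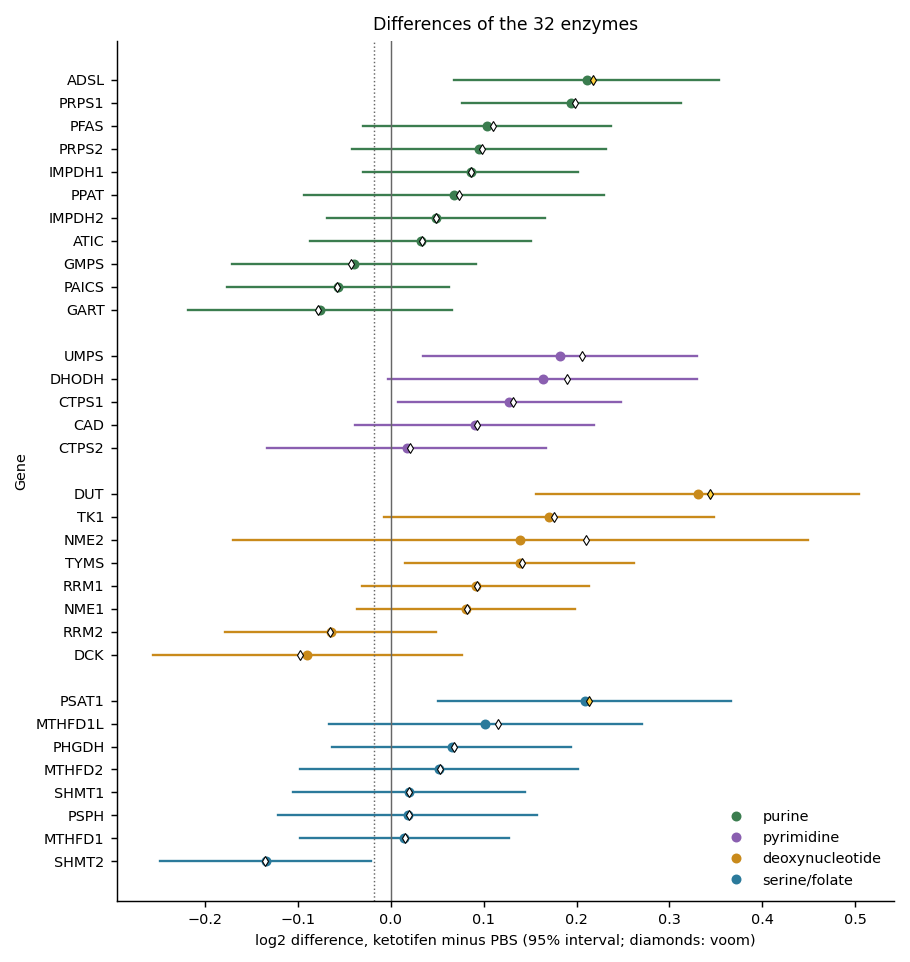
Log2 difference, ketotifen minus PBS, of each enzyme gene by branch (points, limma on log2(FPKM + 1); bars, 95% interval; diamonds, voom, filled yellow where its adjusted p was under 0.05; dotted line, median of all tested genes). DUT lay farthest to the right at 0.33 and SHMT2 farthest to the left at -0.13; the filled diamonds are ADSL, DUT and PSAT1.

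Set side by side, the branches differed in their medians and overlapped in their genes. The median log2 difference was 0.07 in the purine branch (range -0.08 to 0.21), 0.13 in the pyrimidine branch (0.02 to 0.18), 0.12 in the deoxynucleotide branch (-0.09 to 0.33) and 0.04 in the serine and folate branch (-0.13 to 0.21). The ketotifen values lay above both PBS values in 6 of 11 purine genes, 4 of 5 pyrimidine genes, 5 of 8 deoxynucleotide genes and 4 of 8 serine and folate genes. The same held for 23.2% of all tested genes. No test of the differences between branches was made. By library, the median deviation of the pyrimidine genes from each gene's mean was 0.07 and 0.04 in ketotifen libraries A and B, against -0.06 and -0.09 in PBS libraries A and B. For the deoxynucleotide genes it was 0.08 and 0.04 with ketotifen against -0.003 and -0.07 with PBS. In each branch both ketotifen libraries lay above both PBS libraries, and PBS library B was the lowest. Without PBS library B the medians were 0.03 for purine, 0.14 for pyrimidine, 0.08 for deoxynucleotide and 0.03 for serine and folate genes. After rescaling to equal sums the serine and folate median was -0.01, while the other branches stayed above 0.

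**Figure D3:**
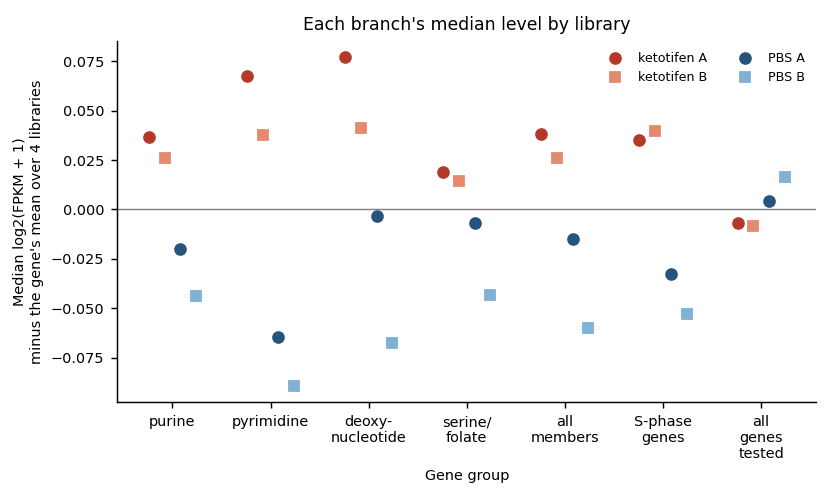
Median over genes of log2(FPKM + 1) minus the gene's own mean over 4 libraries, for each branch, for all 32 enzyme genes, for 13 S-phase genes and for all 10586 tested genes (1 point per library). Both ketotifen libraries lay above both PBS libraries in each branch and in the S-phase genes, and below them over all tested genes.

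Genes of S phase had differences of like size. In a list of 13 S-phase genes, all tested, the median difference was 0.11, and none passed in limma or voom. Their groups lay apart upward in 8 and downward in 2, against 23.2% and 31.2% of all tested genes. At an unadjusted limma p under 0.05, 5 were higher (PCNA, MCM2, MCM3, MCM7 and CDC6) and 1 lower (MKI67). The shares of all tested genes were 10.0% and 10.3%. MCM7, part of the helicase that opens DNA for replication, had 156 and 161 FPKM with ketotifen against 147 and 139 FPKM with PBS (0.15 ± 0.05). MCM2, another subunit, had 85.6 and 90.03 FPKM with ketotifen against 82.3 and 72.4 FPKM with PBS (0.18 ± 0.07). CDC6, which loads the helicase, had 21.0 and 20.7 FPKM with ketotifen against 18.4 and 19.0 FPKM with PBS (0.15 ± 0.06). MKI67, a marker of cycling cells, lay the other way, with 42.9 and 45.0 FPKM under ketotifen against 46.3 and 53.7 FPKM under PBS (-0.18 ± 0.08). PCNA, MCM3 and MKI67 were chosen after their values were seen. The part of the share of cells in S phase in the enzyme values was not tested. In bulk RNA, a change in the share of such cells and a change of RNA per cell cannot be told apart.

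Ratios of related enzymes within a library do not depend on a scaling factor common to all its genes, though quantile normalization would alter them. The ratio of SHMT2 to SHMT1 was 6.87 and 6.72 in ketotifen libraries A and B, against 7.68 and 7.47 in PBS libraries A and B, lower in both ketotifen libraries. The ratio of RRM2 to RRM1 was 1.67 and 1.70 with ketotifen against 1.91 and 1.85 with PBS, also lower in both. The ratio of CTPS1 to CTPS2 was 4.19 and 4.37 with ketotifen against 3.88 and 4.03 with PBS, higher in both. PRPS1 over PRPS2 was 1.38 and 1.46 with ketotifen against 1.35 and 1.29 with PBS, again higher in both. IMPDH2 over IMPDH1 was 2.61 and 2.59 with ketotifen against 2.66 and 2.67 with PBS, and lay lower. The ratio of the mitochondrial MTHFD2 to the cytosolic MTHFD1 overlapped between groups, at 0.758 and 0.748 with ketotifen against 0.775 and 0.694 with PBS. Also overlapping were NME1 over NME2, MTHFD1L over MTHFD1, PPAT over PAICS, TYMS over TK1 and RRM2 over RRM2B. PSAT1 over PHGDH lay higher, at 1.37 and 1.42 with ketotifen against 1.31 and 1.21 with PBS. The share of unrelated gene pairs whose ratios lie apart was not computed. With 2 libraries a group no exact permutation test of a single ratio can go below p = 0.333, so none was made.

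**Figure D4:**
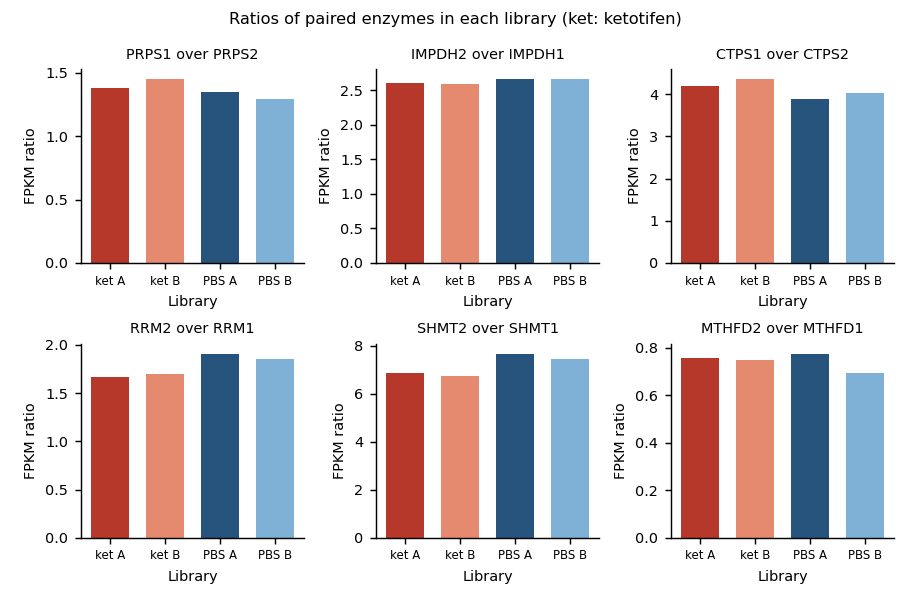
Ratio of the FPKM values of 6 pairs of related enzymes in each library (1 bar per library; red tones, ketotifen; blue tones, PBS; axes start at 0). SHMT2 over SHMT1, RRM2 over RRM1 and IMPDH2 over IMPDH1 were lower in both ketotifen libraries. CTPS1 over CTPS2 and PRPS1 over PRPS2 were higher, and MTHFD2 over MTHFD1 overlapped. Of the other pairs computed, not shown, all overlapped except PSAT1 over PHGDH.

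RefSeq windows of 300 bases were matched for 28 of the 32 genes, with 44 windows in all. CACGTG, the same on both strands, stood in 22.7% of these windows, from 8 genes (ATIC, DCK, DHODH, MTHFD1, MTHFD1L, NME1, PAICS and PPAT), against 9.77% of the windows of all tested genes and 7.25% of all windows. These shares count windows, which can overlap. The 10 windows hold 8 distinct E-boxes, since 3 windows of MTHFD1L share 1 and those of PPAT and PAICS share another. TTTGGCGC stood in windows of DCK, DUT and GART and TTTCCCGC in windows of DUT, PRPS2 and TYMS, each 6.82% of the windows, against 1.05% and 2.50% of the windows of tested genes. TGATGNAA stood in windows of MTHFD1L alone, at 1 site that 3 of them share. These were 6.82% of the windows, against 1.89% of the windows of tested genes and 3.62% of all windows. Such matches are letters in a window and were not tied to any factor. The median log2 difference was 0.05 in the 8 genes with an E-box and 0.09 in the 20 matched genes without one.

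MYCN, introduced in making this line, had 327 and 332 FPKM with ketotifen, against 370 and 387 FPKM with PBS. Its groups lay apart. It fell in voom (-0.20 ± 0.05, adjusted p = 0.0136) and did not pass in limma (adjusted p = 0.123). Reads from the cells' own MYCN and from an introduced copy cannot be separated here. Of 7 transcription factors of these pathways 6 were tested, and none besides MYCN passed in limma or voom. MAX, the partner of MYCN, had 25.1 and 25.0 FPKM with ketotifen against 24.9 and 26.9 FPKM with PBS, with overlapping groups. E2F1 had 41.5 and 41.2 FPKM with ketotifen against 40.2 and 38.5 FPKM with PBS (0.07 ± 0.05).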

How the data were processed

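Polyadenylated RNA of 4 libraries was measured. Per the submitters' processing notes, fastp, HISAT2, HTSeq and the build GRCh38 were used. The sources used here do not give the library total or the annotation behind the values. The authors deposited 1 table of FPKM values. Its columns name the group and a letter A or B, which could not be tied to the labels' replicate numbers. The names of the ketotifen columns also hold a 5, whose meaning is not given.

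Log2(FPKM + 1) of the 10586 genes whose mean reached 1 FPKM was fitted in limma 3.58.1 under R 4.3.3, with an intensity trend, two-sided, with Benjamini-Hochberg adjustment over all of them. The deposited FPKM values of a gene step by the worth of 1 read. Whole reads were recovered for all 10586 genes, except that a factor shared by the 4 libraries may remain in a gene (tolerance 0.05 reads or less; 1 of 300 genes with scrambled values also passed), and voom was run on them as an alternative. The limma fit and the recovery were tested on simulated data. Each library was also left out in turn, the filter was dropped or raised to 5 FPKM, pseudocounts of 0.1 and 5 were used, and 3 other scalings were tried. Fold changes on this scale understate changes of genes with low values. The median was 1413 to 1561.5 reads per gene and library.

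The 32 genes, the other lists and the rule for named genes (all 32, the 3 genes of each other list with the smallest limma p, and MYCN) were chosen with earlier results of these data known. NDUFA4L2, ENOSF1 and the promoter windows shown were chosen after their values were seen. Some genes that the rule names are not reported here. Promoter sequences are from RefSeq (GRCh38.p14) and gene positions from GENCODE 29 (GRCh38).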

Additional observations from a re-analysis of the deposited data

How the results depend on the processing

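Over the whole table limma called 13 genes; no filter gave 0 (2260 at an unadjusted p under 0.05), a mean of at least 5 FPKM gave 27, median ratio scaling 2, quantile normalization 3 and voom 722, and leaving out 1 library gave 10 to 1936. Of the 32 enzyme genes limma called 0, voom 3, and limma without 1 library 0 to 8: 8 without PBS library A, 1 (DUT) without PBS library B and 0 without either ketotifen library. Added after seeing the data, voom with quantile normalization called 245 genes and 1 enzyme gene (DUT), and voom without 1 library 127 to 2157 genes and 1 to 9 enzyme genes, with 9 only without PBS library A.

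The median over the 32 genes, 0.08, was 0.111 after median ratio scaling, 0.0319 with equal sums and 0.0467 to 0.108 without 1 library, lowest without PBS library B. In that order the purine median was 0.0949, 0.0189 and 0.0294 to 0.0723 (0.0117 after quantile normalization), the pyrimidine median 0.155, 0.0770 and 0.102 to 0.137, and the serine and folate median 0.0629, -0.0150 and 0.0330 to 0.0636. The deoxynucleotide median was 0.0637 with equal sums and 0.0773 to 0.135 without 1 library.

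ADSL, DUT and PSAT1 kept their sign under each of these alternatives. With equal sums the sign turned for ATIC (-0.0192), IMPDH2 (-0.0033), CTPS2 (-0.0295), SHMT1 (-0.0307), MTHFD1 (-0.0370) and PSPH (-0.0303), and after quantile normalization for ATIC (-0.0234), IMPDH2 (-0.0010) and MTHFD1 (-0.0459). Without 1 library PPAT ran from -0.0190 to 0.156, CTPS2 from -0.0130 to 0.0469, NME2 from -0.0667 to 0.346, SHMT1 from -0.0027 to 0.0424, MTHFD2 from -0.0311 to 0.135 and PSPH from -0.0107 to 0.0473. The cause was not tested.

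A replicate block by the column letters A and B, added after seeing the data, raised the genes called to 637 in limma and 1403 in voom, and the enzyme genes called to 2 in limma (ADSL, adjusted p = 0.0484, and DUT, adjusted p = 0.0194) and 5 in voom. The letters are not the labels' replicate numbers. Across tested genes the B minus A differences of the ketotifen and PBS libraries correlated at 0.10, and with 2 letters this does not show that they pair the libraries. With 2 libraries a group the precision rests on the spread between libraries more than on read depth.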

Other observations

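Genes of nucleotide salvage and dNTP control held the clearest values outside the 32 enzymes. Of 10 tested genes of pyrimidine and deoxynucleoside salvage none passed in limma, and the median log2 difference was 0.04. Voom called 2 of them higher and 0 lower, against 3.35% and 3.47% of all tested genes. DTYMK, the kinase that turns dTMP into dTDP, had 51.2 and 50.9 FPKM with ketotifen, against 45.6 and 36.9 FPKM with PBS (0.31 ± 0.09, limma adjusted p = 0.147, voom adjusted p = 0.0291). DCTPP1, a pyrophosphatase that clears dCTP and its modified forms, had 88.2 and 86.6 FPKM with ketotifen against 79.3 and 70.1 FPKM with PBS (0.23 ± 0.07, limma adjusted p = 0.148, voom adjusted p = 0.0433). In both genes PBS library B was the lowest. CDA, cytidine deaminase, lay the other way at a low level, with 1.89 and 1.35 FPKM under ketotifen against 2.37 and 2.63 FPKM under PBS (-0.42 ± 0.11, limma adjusted p = 0.124, voom adjusted p = 0.202). Of 13 tested purine salvage genes none passed in limma or voom, with a median of 0.06. ADA, adenosine deaminase, had 131.9 and 133 FPKM with ketotifen against 127 and 112 FPKM with PBS. PNP, the nucleoside phosphorylase that follows it, had 110.2 and 110.6 FPKM with ketotifen against 107 and 93.2 FPKM with PBS. HPRT1, which salvages hypoxanthine and guanine, had 29.2 and 29.3 FPKM with ketotifen against 32.9 and 31.0 FPKM with PBS, with groups that lay apart downward (-0.12 ± 0.06).

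Among genes of methionine synthesis, MTR, the methionine synthase, had 7.51 and 7.08 FPKM with ketotifen against 8.84 and 8.67 FPKM with PBS (-0.23 ± 0.07, limma adjusted p = 0.139, voom adjusted p = 0.0431). The groups lay apart, and MTR fell in voom. Of 8 tested folate genes none passed in limma, with a median of 0.04, and of 12 tested serine, glycine and methionine genes none passed in limma, with a median of -0.01. SLC19A1, the reduced folate carrier, had 7.69 and 7.77 FPKM with ketotifen against 7.01 and 7.17 FPKM with PBS. SLC46A1, the proton-coupled folate transporter, had 1.68 and 2.01 FPKM with ketotifen against 1.55 and 1.55 FPKM with PBS. GCSH, a carrier protein of the glycine cleavage system, had 25.9 and 25.3 FPKM with ketotifen against 23.2 and 20.7 FPKM with PBS (0.22 ± 0.07, limma adjusted p = 0.154). MAT2A, which makes S-adenosylmethionine, had 201 and 207 FPKM with ketotifen against 183 and 189.95 FPKM with PBS (0.13 ± 0.05, limma adjusted p = 0.221).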
